A study of Homo sapiens with 20 samples.

Results

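Live Bifidobacterium lactis 420 and live Lactobacillus acidophilus NCFM, each kept for 8 h on Caco-2 cells, are compared here directly with each other, and medium alone takes no part in that contrast. The arrays were chosen by their titles, and they are 4 of the 20 in the series, 2 for each strain. One co-culture held B. lactis 420 (Bifidobacterium animalis subspecies lactis) and the other held NCFM, both washed and added to the apical side at 20 to 100 bacteria per Caco-2 cell, with RNA taken after 8 h and 5 µg of it labelled. Shared by both were Caco-2 cells at passages 47 to 51, differentiated on inserts by a short 5-day protocol, and a test medium without antibiotics. The labels give that range of bacteria and not the number for each strain, so strain and bacterial number cannot be told apart. Also used were 4 arrays of cells given 10% cell-free culture supernatant of B. lactis 420 or NCFM for 24 h, 2 of L. salivarius Ls-33 co-culture at 8 h, and 2 of medium alone at 8 h. A further 2 arrays, of 10% Ls-33 supernatant for 24 h, entered no comparison but helped to set the filter and the estimate of spread. Caco-2 is an established line from a human colon carcinoma whose confluent layers come to resemble small intestinal enterocytes. The series states that these samples were run in duplicate, and nothing says that the duplicates came from separate cultures, so p-values measure the spread between arrays, which may be technical.

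Epithelial cells meet bacteria through pattern recognition receptors that free the transcription factor NF-kB from its IkB inhibitors. NF-kB then switches on chemokines, adhesion molecules, acute phase and antimicrobial proteins, and also its own brakes, among them A20 (TNFAIP3), IkB-alpha (NFKBIA) and the microRNA miR-146a. NCFM and B. lactis 420 are both sold as probiotics, and both are Gram-positive, so they carry no lipopolysaccharide.

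Values are log2 signals of Affymetrix probe sets, 1 per gene, and levels are compared within a probe set only. All 12 enterocyte markers that were looked up stood above the filter's floor (2.74, the 40th percentile of gene means) in either co-culture. Of leukocyte markers, PTPRC and CD3E averaged 1.79 and 1.98 with B. lactis 420 and 1.94 and 2.06 with NCFM, all under the floor. ITGAM and LCP1 lay above it without a call. Of 7 fibroblast and endothelial markers 3 lay above it, COL1A1, LUM and PECAM1, at 11.3, 11.1 and 8.92 with B. lactis 420 and 11.4, 11.2 and 8.90 with NCFM. In a longer list of such markers 7 members were tested, of which limma called 0 and 2 had an unadjusted p under 0.05, both lower. The log2 of the summed signals of the first 7 was 12.25 and 12.38 with B. lactis 420 and 12.38 and 12.46 with NCFM, so the arrays of the strains met at 12.38. Of 7 goblet, Paneth and enteroendocrine markers 3 lay above the floor (TFF3, SPINK4 and CHGB) and 0 were called, with summed signals of 6.03 and 6.20 with B. lactis 420 and 5.97 and 5.95 with NCFM. In a longer list of these markers 4 were tested and 1 was called higher with B. lactis 420 (25%, beside 2.28% of all genes), LYZ at 0.94. The enterocyte sum was 15.20 and 15.23 with B. lactis 420 and 15.16 and 15.18 with NCFM, and the leukocyte sum 7.54 and 7.63 with B. lactis 420 and 7.64 and 7.46 with NCFM. Sums of the goblet group and of enterocytes were thus higher on both B. lactis 420 arrays, and the part of other cell types in the results was not tested. The 3′ minus 5′ difference of the beta-actin control probe sets, which grows as RNA is shortened, was 1.08 and 1.27 with B. lactis 420, 1.25 and 1.54 with NCFM and 0.88 and 0.80 with medium. The co-cultures overlapped in it. The same difference of the GAPDH control was 0.0783 and 0.0159 with B. lactis 420, 0.1014 and 0.1061 with NCFM and 0.0204 and -0.0352 with medium, so both B. lactis 420 arrays lay below both NCFM arrays. The part of RNA shortening in the results was not tested. In bulk RNA, fewer cells expressing a gene and less of its RNA per cell cannot be told apart. Median log2 signal lay between 2.66 and 2.72 over the 20 arrays.

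The largest differences between the co-cultures were rises with B. lactis 420, and the 5 largest were those of MIR146A, PI3, C3, OLR1 and CEACAM7. Outside the comparisons with medium, a rise or fall is that of B. lactis 420 relative to NCFM. A gene is called where limma gave an adjusted p under 0.05 over all 11865 genes tested. By that rule 270 genes (2.28% of those tested) were higher with B. lactis 420 and 90 (0.759%) lower, 360 in all (3.03%). Of these, 38 (0.32% of genes tested) differed at least 2-fold and all 38 were higher. The largest rise was 19.6-fold, for the probe set of MIR146A, and the largest fall 1.96-fold, for ARRDC4. Most differences were small, since 149 of the 270 and 58 of the 90 stayed under 1.5-fold, and the median over all genes tested was 0.01. Over all genes tested, 44.4% had strains whose arrays did not overlap. Called members of the gene lists are to be read beside the shares of all genes, 2.28% higher and 0.759% lower.

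Counts depended on single arrays and on scaling. Without the first B. lactis 420 array 134 genes were higher and 25 lower, without the second 150 and 74, without the first NCFM array 359 and 146, and without the second 184 and 50. Called in all 4 of these fits were 98 of the 270 higher genes and 11 of the 90 lower ones. After quantile normalization of all arrays 202 genes were higher and 170 lower, so 54.3% of calls were higher, against 75% in the deposited scaling. Of the 202, 201 were among the 270, and all 90 were among the 170. That scaling put the median of all genes at -0.02. Of the 85 genes named here by rule, 15 lost their call under it and 0 changed direction.

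**Figure D1:**
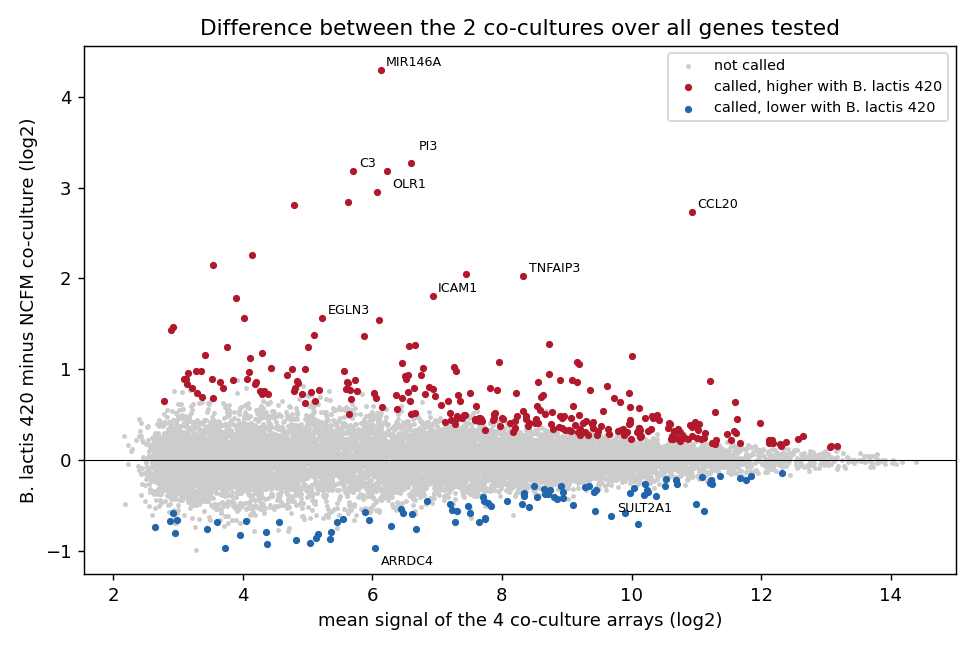
Difference between the co-cultures, B. lactis 420 minus NCFM (log2, vertical axis), against the mean log2 signal of their 4 arrays (horizontal axis) for the 11865 genes tested, 1 point a gene. Red points are the 270 genes called higher, blue points the 90 called lower and grey points the rest. The upper side reaches 4.29 at MIR146A and the lower side of called genes ends at -0.97 for ARRDC4.

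The list of NF-kB subunits and feedback inhibitors held 8 calls, all higher with B. lactis 420. Of 27 listed, 23 had a probe set and 20 passed the filter, and 8 of these 20 were higher with B. lactis 420 (40%, beside 2.28% of all genes) and 0 lower. The median difference of the 20 was 0.36. MIR146A, the host transcript of the microRNA that dampens TRAF6 and IRAK1 signalling, read 8.24 and 8.32 with B. lactis 420, against 4.14 and 3.82 with NCFM. Neither NCFM array came near either B. lactis 420 array. The difference was 4.29 ± 0.17 (SE, limma adjusted p = 1.77e-12). With medium alone the probe set read 2.28 and 2.14, under the floor. The probe set reads the transcript and not the mature microRNA, whose RefSeq sequence (GRCh38.p14, chr5:160485372-160485393, plus strand) is shown, with the seed, bases 2 to 8, in capitals, because it is the product this gene is known for.
hsa-miR-146a-5p: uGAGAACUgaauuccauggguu

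TNFAIP3, which encodes the ubiquitin-editing brake A20, read 9.20 and 9.49 with B. lactis 420, against 7.45 and 7.19 with NCFM. That is 4.07-fold higher (2.03 ± 0.13 SE, adjusted p = 3.43e-09), and its other probe set gave 2.29. NFKBIA, the classical IkB inhibitor, read 9.21 and 9.17, against 8.33 and 8.16 with NCFM (0.95 ± 0.09, adjusted p = 7.00e-07). TNIP1, the A20-binding partner ABIN-1, differed by 1.07 ± 0.09 (adjusted p = 1.25e-07), while another of its probe sets gave -0.21 without a call. IKBKE, a kinase of the IkB kinase family, was 3.44-fold higher. It read 4.65 and 4.94 with B. lactis 420, against 3.02 and 3.00 with NCFM, near the floor. The precursor NFKB2 was 2.09-fold higher and its partner RELB 1.86-fold, both subunits of the alternative pathway. The RELB call was lost without the second array of either strain (0.69 and 0.74). The atypical IkB protein NFKBIZ rose by 0.49 ± 0.07 (adjusted p = 4.24e-04). Subunits of the classical pathway were not called, with RELA at 0.14, REL at 0.52 (adjusted p = 0.114) and NFKB1 at -0.34. The list was chosen with these data known, and without 1 of the 4 arrays compared 7 to 9 members were called.

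Binding sites of NF-kB were looked for as letters in the promoters of this list, the chemokines and the adhesion genes. The pattern GGANNTTCC, N being any base, was searched on both strands of the 250 bases before the start in RefSeq promoters of GRCh38.p14. It stood in 13 of 32 tested members with a promoter entry (40.6%) and in 8 of the 14 called ones (57.1%). The share was 5.37% over 9696 tested genes with an entry and 3.84% over all 35116 promoters. These lists hold kinds of genes that NF-kB is known to switch on, and they were chosen with these data known. A high share in them thus follows in part from that choice and says nothing of the part of NF-kB here. Of all genes called higher 12.7% held it, and of those called lower 9.09%. The broader kB consensus, which overlaps it, stood in 43.8% of the 32 and in 15.6% of the tested genes. Shown are 80 bases of 5 called members with a match, in capitals, because their differences were the largest among those holding one. They lie at chr4:73740448-73740527 (plus) for CXCL8, chr6:137867162-137867241 (plus) for TNFAIP3, chr19:10270904-10270983 (plus) for ICAM1, chr4:76023624-76023703 (minus) for CXCL10 and chr5:151081035-151081114 (minus) for TNIP1.
CXCL8: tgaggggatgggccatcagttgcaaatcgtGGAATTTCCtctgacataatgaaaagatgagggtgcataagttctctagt
TNFAIP3: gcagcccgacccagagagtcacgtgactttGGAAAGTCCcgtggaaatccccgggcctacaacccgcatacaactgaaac
ICAM1: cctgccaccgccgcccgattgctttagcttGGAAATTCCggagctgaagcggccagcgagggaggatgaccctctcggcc
CXCL10: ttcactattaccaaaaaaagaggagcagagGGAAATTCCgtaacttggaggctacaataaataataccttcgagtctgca
TNIP1: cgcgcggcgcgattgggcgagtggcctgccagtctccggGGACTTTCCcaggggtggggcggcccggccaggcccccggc
A match is a description of the letters and says nothing of whether the factor bound there.

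Chemokines draw immune cells to the epithelium. Of 21 listed, 14 with a probe set lay under the floor and 6 were tested. Of these 3 were higher with B. lactis 420 (50%, beside 2.28% of all genes) and 0 lower. CCL20, which attracts dendritic cells and lymphocytes bearing CCR6, read 12.24 and 12.35 with B. lactis 420, against 9.67 and 9.46 with NCFM. The NCFM arrays lay beside those of medium, which read 9.53 and 9.52. CCL20 was 6.64-fold higher (2.73 ± 0.07 SE, adjusted p = 3.33e-15). CXCL8, the neutrophil chemokine interleukin-8, read 4.30 and 4.92, against 2.38 and 2.53 with NCFM, and its other probe set differed by 2.77. CXCL10, a ligand of CXCR3 on T cells, read 3.53 and 3.78, against 2.09 and 2.28 with NCFM. For both, the NCFM values lay under the floor, so the sizes of their differences, 2.15 and 1.46, are uncertain. CXCL10 passed the filter only with both Ls-33 arrays in the mean, so the share of 50% rests in part on that group. With the filter at the 60th percentile 1 chemokine was called. CXCL16, CCL28 and CXCL3 were tested without a call, at -0.09, 0.01 and 0.57. CXCL1, under the floor over the arrays of the fit, read 2.88 and 3.48 with B. lactis 420 and 2.34 and 2.45 with NCFM.

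Of 13 tested interleukins and cytokines 2 were higher and 0 lower. IL32, a cytokine of stimulated epithelium, read 10.61 and 10.53 with B. lactis 420, against 9.52 and 9.33 with NCFM (2.21-fold, adjusted p = 3.43e-09). EBI3, a subunit of interleukins 27 and 35, rose by 0.86, but the call was lost without either B. lactis 420 array (0.76 and 0.95) and without the second NCFM array (0.71). IL1B differed by 0.35 and IL1A by -0.42, neither called. Of the 16 tested TNF ligands and receptors 2 were higher. TNFRSF9, the costimulatory receptor 4-1BB, read 8.38 and 8.54, against 6.40 and 6.42 with NCFM (4.14-fold, adjusted p = 6.13e-08), while its other probe sets differed by 1.24 and, without a call, by 0.31. TNFRSF10A, a TRAIL receptor, differed by 0.86, and its call was lost without the second array of either strain (0.57 and 0.56). Its other probe sets differed by 0.10 and 0.014 without a call.

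**Figure D2:**
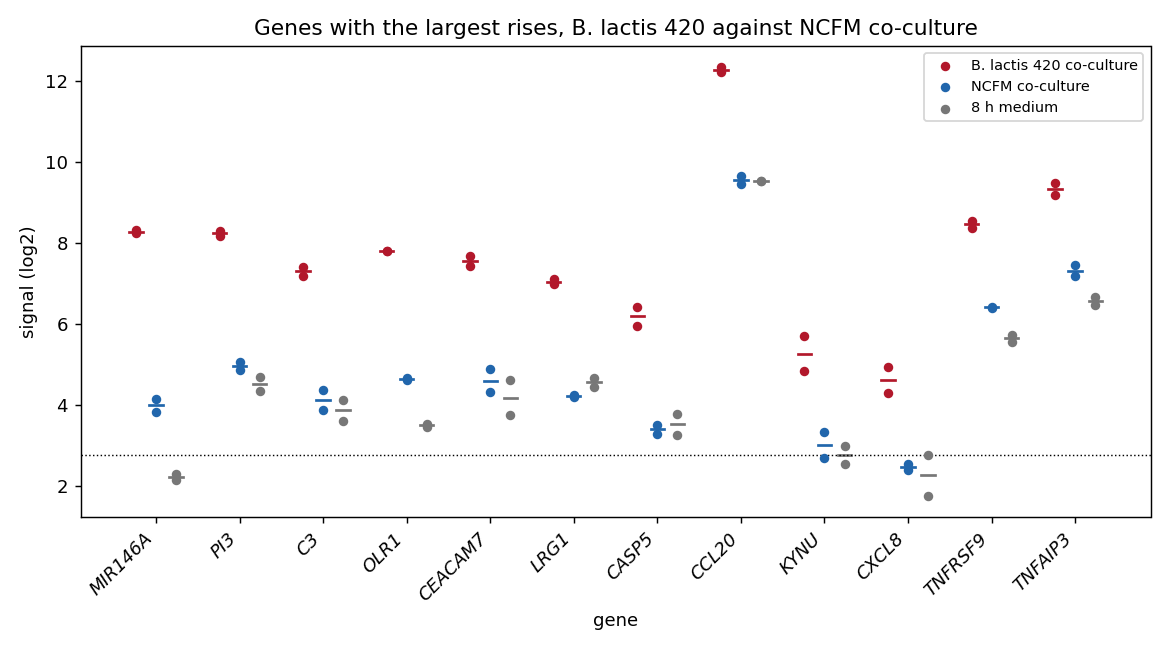
Log2 signal on each array of the 12 genes with the largest rises, with B. lactis 420 cells in red, NCFM cells in blue and 8 h medium in grey. Bars are means of 2 arrays and the dotted line is the filter's floor of 2.74. By the rule that chose these genes both red points lie above both blue ones. For CCL20 the blue points lie beside the grey ones at 9.46 to 9.67.

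Of 13 tested adhesion molecules and scavenger receptors, 6 were higher (46.2%, beside 2.28% of all genes) and 0 lower. The count of 6 higher held without any 1 of the 4 arrays compared. OLR1, the scavenger receptor LOX-1, read 7.81 on both B. lactis 420 arrays, against 4.60 and 4.66 with NCFM. It was 9.05-fold higher (3.18 ± 0.16 SE, adjusted p = 2.05e-10). ICAM1, to which leukocyte integrins bind, read 7.805 and 7.870, against 6.003 and 6.050 with NCFM. That is 3.51-fold (1.81 ± 0.10, adjusted p = 6.88e-10), its other probe sets differed by 1.67 and 1.09, and medium lay between the strains at 7.35 on both arrays. The other 4 calls were carcinoembryonic antigen genes, a family of cell surface adhesion molecules that some bacteria bind. CEACAM7 read 7.67 and 7.43, against 4.87 and 4.32 with NCFM, and its other probe sets differed by 1.75 and 1.88. CEACAM5 differed by 1.28, CEACAM1 by 0.58 and CEACAM6 by 0.52, each with both B. lactis 420 arrays above both NCFM arrays, as in all 270 genes called higher.

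Of 12 tested complement genes 3 were higher (25%, beside 2.28% of all genes) and 0 lower, with a median difference of 0.06. C3, the central component, read 7.19 and 7.41 with B. lactis 420, against 4.37 and 3.86 with NCFM (9.11-fold, adjusted p = 4.34e-09). CFB, a protease of the alternative pathway, read 8.99 on both arrays, against 8.17 and 8.10 with NCFM, while another probe set differed by -0.02 without a call. CD59, which blocks the membrane attack complex, was called at 0.41 (adjusted p = 0.0499), and that call was lost without any 1 of the 4 arrays (0.36 to 0.45). Of 14 tested antimicrobial and antiprotease genes 4 were higher and 0 lower, and 4 were also higher without any 1 of the 4 arrays compared. PI3, the elastase inhibitor elafin, read 8.18 and 8.30, against 5.07 and 4.86 with NCFM (9.68-fold, 3.28 ± 0.18 SE, adjusted p = 3.23e-10), and its other probe set differed by 3.79. LRG1, an acute phase glycoprotein, read 7.12 and 6.98, against 4.24 and 4.18 with NCFM. LYZ, lysozyme, differed by 0.94, and its other probe set by 0.47 without a call. PIGR, which carries IgA across the epithelium, read 3.59 and 3.64, against 2.08 and 2.27 with NCFM, under the floor, and its other probe set differed by -0.38 without a call.

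Of 11 tested caspase and inflammasome genes 4 were higher (36.4%, beside 2.28% of all genes) and 0 lower. CASP5, which senses cytosolic lipopolysaccharide with CASP4, read 6.43 and 5.96 with B. lactis 420, against 3.27 and 3.51 with NCFM (6.98-fold, adjusted p = 1.49e-08). CASP10, an initiator caspase of death receptors, read 4.59 and 5.03, against 3.48 and 3.00 with NCFM (2.97-fold, adjusted p = 7.12e-05), though another CASP10 probe set differed by 0.081 without a call. CASP4 differed by 0.94 and CASP8 by 0.54. The CASP4 call was lost without the second array of either strain (0.64 and 0.76), and that of CASP8 without the second B. lactis 420 array (0.44) or the first NCFM array (0.41). Of 16 tested BCL2 family genes 1 was higher, BIK, a killer protein of the BH3-only group, at 9.63 and 9.81, against 8.76 and 8.56 with NCFM (2.09-fold, adjusted p = 2.79e-07). The effector BAX differed by 0.71 without a call (adjusted p = 0.159), with NCFM arrays at 5.16 and 6.15.

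Of 13 tested receptors and adaptors that sense bacteria, 1 was higher, the kinase MAP3K8 at 0.46, and its call was lost without either B. lactis 420 array (0.55 and 0.37) or the first NCFM array (0.22). MYD88, the adaptor of most Toll-like receptors, differed by -0.10, and IRAK2 by 0.82 (adjusted p = 0.0518). TLR2, which recognises lipoproteins, and TLR4, the lipopolysaccharide receptor, lay under the floor on every array of both co-cultures and were not tested. TLR2 read 2.31 and 2.61 with B. lactis 420 and 2.27 and 2.26 with NCFM.

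Of 18 tested interferon-stimulated genes 3 were higher and 0 lower. OAS1, an antiviral synthetase, read 6.94 and 6.98, against 6.16 and 5.97 with NCFM (1.86-fold, adjusted p = 1.85e-04). OAS3 and IRF1 were called at 0.76 and 0.73, and neither call held without either B. lactis 420 array or the second NCFM array (0.63 to 0.80), nor IRF1 without the first (0.82). IFIT1 pointed the other way at -0.63 without a call (adjusted p = 0.0507). PSMB9, an immunoproteasome subunit, was the 1 called member of 16 tested genes of MHC class I presentation, at 0.89. STAT3, the transcription factor of interleukin-6 signals, rose by 0.59, a call lost without the second NCFM array (0.38). KYNU, kynureninase of tryptophan breakdown, read 4.84 and 5.69, against 3.33 and 2.69 with NCFM (4.77-fold, adjusted p = 8.93e-05). The second NCFM array lay under the floor, and other KYNU probe sets differed by 1.36 and, without a call, by 0.34. NAMPT, the rate-limiting enzyme of nicotinamide salvage, rose by 0.50, and NNMT differed by 0.79 without a call (adjusted p = 0.058). KYNU and NAMPT were 2 of 12 tested members of their list, with 0 lower.

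**Figure D3:**
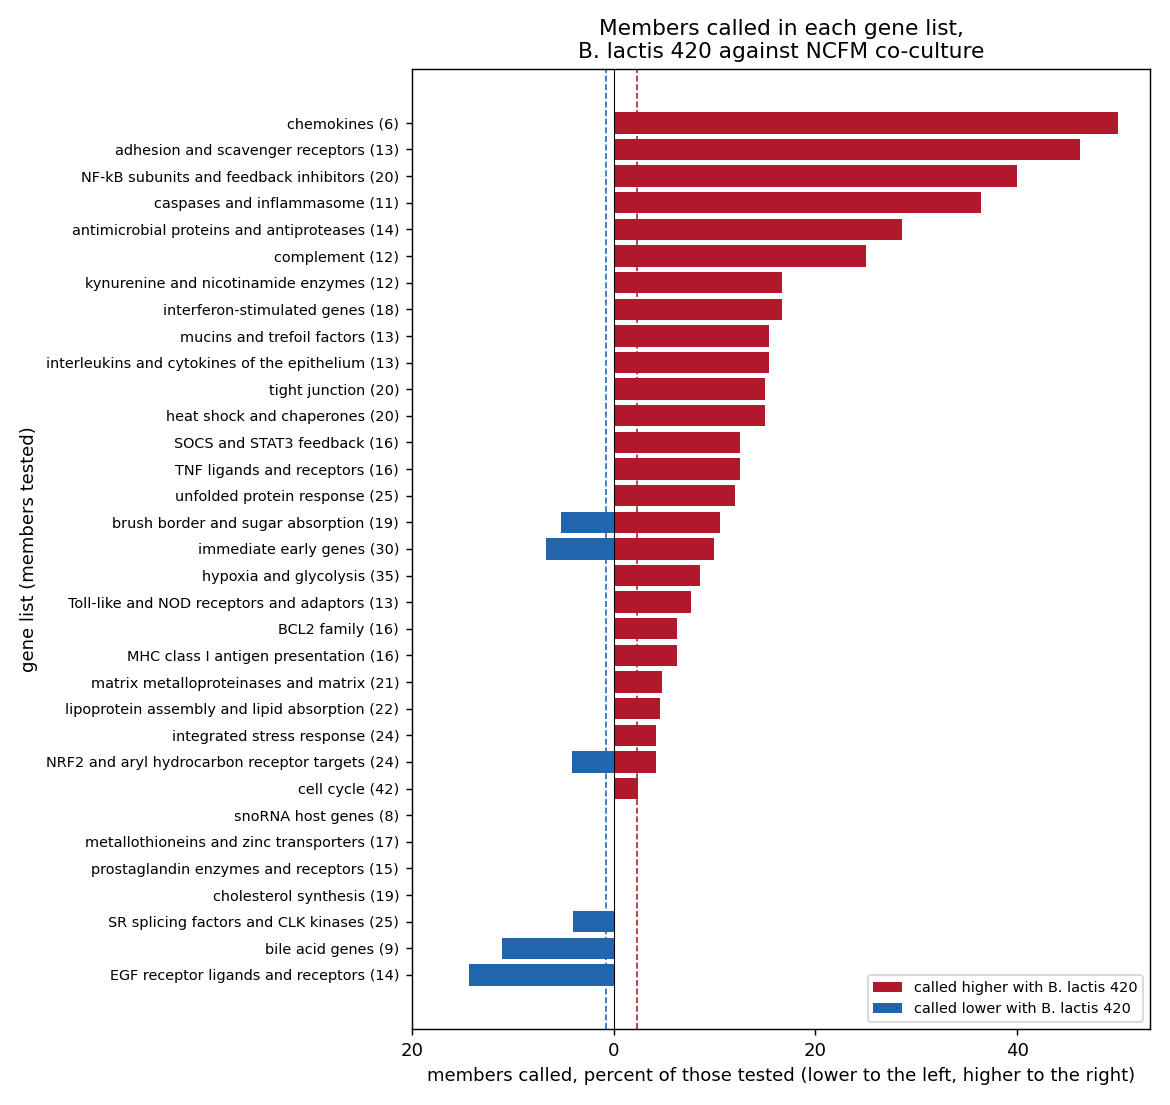
Share of tested members of each of 33 gene lists called higher with B. lactis 420 (red, to the right) or lower (blue, to the left), in percent, with the number tested in brackets. Dashed lines give the same shares over all genes tested, 2.28% and 0.759%. Chemokines, adhesion and scavenger receptors, NF-kB genes and caspases reach 50%, 46.2%, 40% and 36.4%, on 6 to 20 members each. The chemokine share includes CXCL10, which passed the filter only with both Ls-33 arrays in the mean.

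Of 20 tested tight junction genes 3 were higher and 0 lower, and the median difference was 0.05. CLDN1, claudin-1, read 10.20 and 10.12 with B. lactis 420, against 9.85 and 9.66 with NCFM (1.32-fold, adjusted p = 0.00153). PARD3, of the polarity complex, differed by 0.60 and CGNL1, paracingulin, by 0.76. The PARD3 call was lost without the first B. lactis 420 array (0.53) or the second NCFM array (0.54), and that of CGNL1 without the first B. lactis 420 array (0.53) or either NCFM array (0.64 and 0.88). TJP1, the scaffold ZO-1, differed by 0.05 (95% interval -0.06 to 0.15) and occludin, OCLN, by -0.06 (-0.15 to 0.04), neither called. Another OCLN probe set was called at 0.25. Of 13 tested mucins and trefoil factors 2 were higher. TFF1, a mucosal repair peptide, read 9.49 and 9.53, against 8.56 and 8.71 with NCFM (1.84-fold, adjusted p = 5.88e-07). MUC13 rose by 0.34, a call lost without the first B. lactis 420 array (0.26) or the second NCFM array (0.17). The prostaglandin synthase PTGS2 differed by 0.06 (95% interval -0.15 to 0.26), and limma called 0 of 15 tested prostaglandin genes, with 3 at an unadjusted p under 0.05 (1 higher, 2 lower).

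Of 19 tested brush border and sugar absorption genes 2 were higher and 1 lower. AQP3, a water and glycerol channel, was higher than with NCFM by 0.33 (adjusted p = 4.34e-04), though lower than medium with both strains (-0.74 and -1.07). The peptide transporter SLC15A1 was also called at 0.33, but another probe set differed by -0.40 and the call was lost without any 1 of the 4 arrays (0.31 to 0.35). SLC3A1, of cystine uptake, fell by 0.36, a call lost without the second array of either strain (-0.25 and -0.33). Of 22 lipoprotein and lipid absorption genes 1 was higher (4.55%, beside 2.28% of all genes), the lipid droplet protein PLIN2 at 0.18. That call was lost without either B. lactis 420 array or the second NCFM array (0.14 to 0.21). Of 19 cholesterol synthesis genes limma called 0, with 4 higher and 1 lower at an unadjusted p under 0.05. SULT2A1, the hydroxysteroid and bile acid sulfotransferase, read 9.29 and 9.47 with B. lactis 420, against 9.93 and 10.05 with NCFM. It was the 1 member called of 9 tested bile acid genes, 1.53-fold lower (adjusted p = 4.54e-05), and its other probe set differed by -0.29 without a call.

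Of 35 tested hypoxia and glycolysis genes 3 were higher and 0 lower, with a median of 0.03. EGLN3, an oxygen-sensing prolyl hydroxylase, read 6.07 and 5.94 with B. lactis 420, against 4.58 and 4.30 with NCFM (2.95-fold, adjusted p = 2.72e-06), and medium read 6.40 and 6.80. SLC2A1, the glucose transporter GLUT1, rose by 0.35. ENO1, the glycolytic enolase, was called at 0.16 and lost that call without any 1 of the 4 arrays (0.14 to 0.18).

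Of 30 tested immediate early genes 3 were higher and 2 lower. IER3, an early gene that protects from apoptosis, rose by 0.77, the BMP target ID1 by 0.69 and KLF6 by 0.32. EGR1 fell by 0.28 and KLF10 by 0.48, while other EGR1 probe sets differed by -0.011 and -0.11 without a call. The KLF10 call was lost without the first B. lactis 420 array (-0.28) or either NCFM array (-0.45 and -0.52). The KLF6 call was lost without the second NCFM array (0.23), and that of EGR1 without the second B. lactis 420 array (-0.22) or the first NCFM array (-0.17). Of 14 tested genes of EGF receptor signalling 2 were lower and 0 higher, both feedback inhibitors. SPRY1 differed by -0.57, with another probe set at 0.24, and SPRY2 by -0.28. Their calls were lost without the first B. lactis 420 array (-0.47 and -0.30), and without the first NCFM array for SPRY1 (-0.47) or the second B. lactis 420 (-0.27) or NCFM array (-0.26) for SPRY2.

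Among stress genes, 3 of 25 tested members of the unfolded protein response were higher, namely XBP1, its transcription factor, at 0.47, the chaperone cofactor DNAJB9 at 0.49 and DNAJB11 at 0.21. Another XBP1 probe set differed by -0.39 without a call, and DNAJB11 lost its call without either B. lactis 420 array or the first NCFM array (0.18 to 0.22). Heat shock genes with a call, HSP90AB1, HSPB1 and HSPD1, 3 of 20 tested, differed by 0.15 to 0.19, and each lost its call in at least 3 of the 4 fits without 1 array (0.14 to 0.20). Of 42 cell cycle genes 1 was higher (2.38%, near the 2.28% of all genes), the inhibitor CDKN1A at 0.51. That call was lost without the second array of either strain (0.46 and 0.47). Metallothioneins and zinc transporters (17 tested) and snoRNA host genes (8 tested) held 0 calls by limma, with 2 members (1 higher, 1 lower) and 1 member (lower) at an unadjusted p under 0.05.

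The remaining lists held 0 to 3 calls each. PLAUR, the urokinase receptor, read 7.17 and 7.37 with B. lactis 420, against 6.42 and 6.52 with NCFM (1.75-fold, adjusted p = 2.88e-04). Its other probe sets differed by 0.14 and 0.52 without a call. PLAUR was the 1 called member of 21 tested matrix and metalloproteinase genes (4.76%, beside 2.28% of all genes). Of 24 tested integrated stress response genes 1 was higher (4.17%), the pseudokinase TRIB3 at 0.39. Of 16 tested SOCS and STAT3 feedback genes SOCS6 was called at 0.45 beside STAT3 (12.5%). The TRIB3 call was lost without the second B. lactis 420 array (0.26) or the first NCFM array (0.33), and that of SOCS6 without any 1 of the 4 arrays (0.42 to 0.48). Of 24 targets of NRF2 and the aryl hydrocarbon receptor the quinone reductase NQO1 was higher, by 0.24, and AKR1C3, an aldo-keto reductase, lower, by 0.18. Of 25 splicing factor and CLK kinase genes 1 was lower, LUC7L3 at -0.22. The epithelial keratins KRT8, KRT20 and KRT18 were higher by 0.27, 0.23 and 0.15, 3 of 16 tested genes of enterocyte differentiation, and the KRT8 probe set is of a kind that can also bind related transcripts. These 6 calls were each lost in 1 fit (KRT8, without the first B. lactis 420 array, 0.22) or in 3 fits (the others) of the 4 without 1 array, at 0.21 to 0.25 for NQO1, -0.20 to -0.17 for AKR1C3, -0.23 to -0.17 for LUC7L3, 0.16 to 0.24 for KRT20 and 0.11 to 0.17 for KRT18.

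The 90 genes that were lower with B. lactis 420 differed by less than 2-fold. ARRDC4, an arrestin-like protein that responds to glucose, read 5.53 and 5.58 with B. lactis 420, against 6.52 and 6.53 with NCFM, with medium between them at 6.18 and 5.98. It fell by 0.97 (0.14 SE, adjusted p = 2.45e-04). GNG7, a G protein gamma subunit, read 3.38 and 3.11, against 4.32 and 4.10 with NCFM, and its call was lost without the second B. lactis 420 array (-0.83). RASSF8-AS1, an antisense RNA, read 3.94 and 3.89, against 4.85 and 4.83 with NCFM. SLC6A4, the serotonin transporter, read 4.45 and 4.33, against 5.31 and 5.23 with NCFM, while medium read 7.04 and 6.95. Its call was lost without the second B. lactis 420 array (-0.82). AOC3, an amine oxidase, read 4.74 and 4.76, against 5.75 and 5.37 with NCFM and 7.94 and 7.86 with medium.

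The other 7 of the 12 largest falls, MFAP3L, HAGLR, MAP2K6, RUNDC3B, ADAMTS6, CROT and CALCOCO1, were 1.73-fold to 1.88-fold lower. Each lost its call in at least 2 of the 4 fits without 1 array, at -0.59 for ADAMTS6 without the second NCFM array and -0.61 for RUNDC3B and -0.63 for MFAP3L without the first B. lactis 420 array. The lowest sizes of the rest in these fits were -0.78 for HAGLR, -0.66 for MAP2K6, -0.69 for CROT and -0.65 for CALCOCO1. ADAMTS6 averaged 2.56 with B. lactis 420, under the floor, so the size of its fall is uncertain. HAGLR, a long non-coding RNA, and CALCOCO1, an autophagy receptor, read 4.82 and 5.00 and 3.82 and 4.10 with B. lactis 420, against 5.69 and 5.87 and 4.80 and 4.70 with NCFM.

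**Figure D4:**
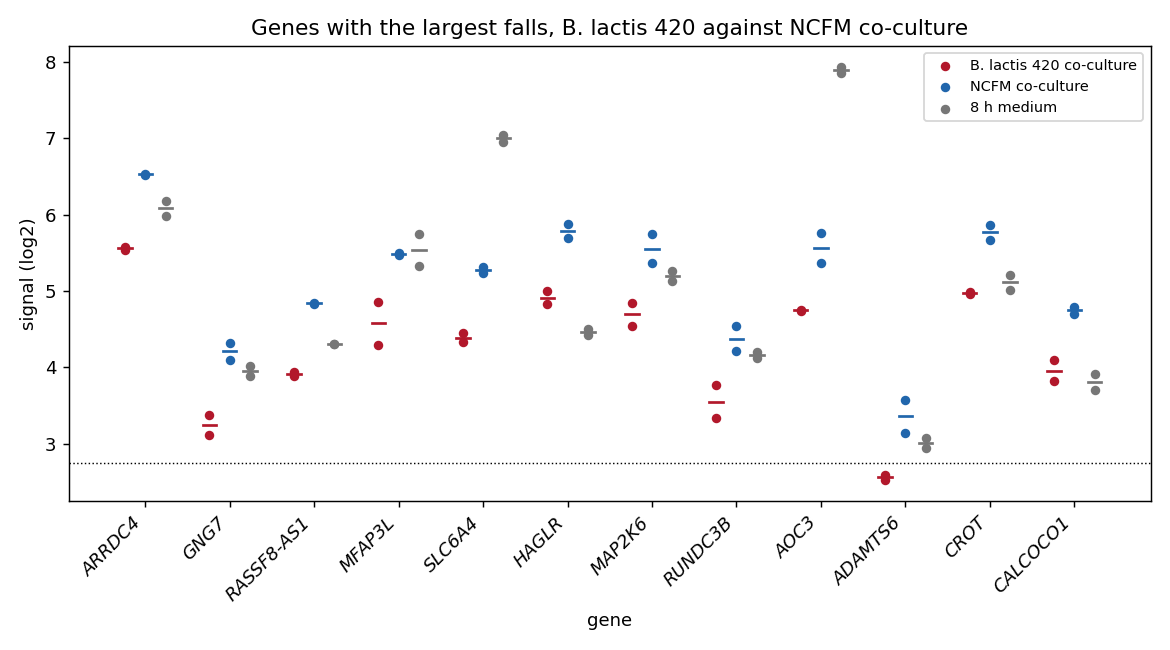
Log2 signal on each array of the 12 genes with the largest falls, with B. lactis 420 cells in red, NCFM cells in blue and 8 h medium in grey. Bars are means of 2 arrays and the dotted line is the filter's floor of 2.74. By the rule that chose these genes both red points lie below both blue ones. In SLC6A4 and AOC3 the grey points lie above both strains at 6.95 to 7.94.

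Where each strain stood relative to untreated cells differed from gene to gene. The comparisons with medium share the 2 medium arrays, so their values are only set side by side. Of the 270 higher genes, 102 were called above medium with B. lactis 420 only and 36 with both strains. Another 71 were called below medium with NCFM only and 33 with both, 13 above with B. lactis 420 and below with NCFM, and 15 in neither. Of the 90 lower genes, 25 were below medium with B. lactis 420 only, 22 above with NCFM only, 23 below and 7 above with both, 1 below with B. lactis 420 and above with NCFM, and 12 in neither. CCL20 differed from medium by 2.76 with B. lactis 420 and 0.03 with NCFM, IL32 by 1.12 and -0.03, and BIK by 1.05 and -0.01. In these the NCFM difference was not called. ICAM1 rose by 0.49 with B. lactis 420 and fell by 1.32 with NCFM. TNIP1 likewise stood at 0.72 and -0.35, NFKBIA at 0.70 and -0.25 and CFB at 0.23 and -0.63, each called in both comparisons. The calls of CFB with B. lactis 420 (0.21 to 0.25) and of NFKBIA with NCFM (-0.16 to -0.26) were lost in 4 and 3 of the 4 fits without 1 array, and that of TNIP1 with NCFM without the second NCFM array (-0.23) or the first medium array (-0.29). MIR146A was called higher with both, and its medium signal was under the floor, so that the fitted differences of 6.07 and 1.77 are uncertain in size. OLR1 rose with both (4.32 and 1.15), as did NFKBIZ (2.01 and 1.52). EGLN3 was lower than medium with both, at -0.59 and -2.15, and CEACAM1 at -0.92 and -1.50. Leaving out the second array of B. lactis 420 (-0.53) or of medium (-0.39) ended the EGLN3 call in the first of these comparisons. For IER3 the B. lactis 420 value of 0.15 was not called and the NCFM value of -0.62 was. SULT2A1 stood at -0.63 with B. lactis 420 and -0.02 with NCFM. The number of genes called against medium was 4184 with B. lactis 420 and 4186 with NCFM, 35.3% of those tested in each. With B. lactis 420 these were 2173 higher (18.3%) and 2011 lower (16.9%), and with NCFM 1997 higher (16.8%) and 2189 lower (18.4%).

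Whether cell-free supernatants of the strains differed in the same genes was asked with 4 arrays that the co-culture contrast does not use. Between B. lactis 420 and NCFM supernatant limma called 3 genes (0.0253% of those tested), 1 higher (0.00843%) and 2 lower (0.0169%). The 1 higher was CCL20, by 0.46 (adjusted p = 0.0304). CCL20 read 9.62 and 9.52 with B. lactis 420 supernatant and 9.18 and 9.04 with NCFM supernatant. CRIM1 and SELENOW were lower, at -0.43 and -0.67. CCL20 and CRIM1 lost their calls without any 1 of these 4 arrays (0.39 to 0.53 and -0.46 to -0.40), and SELENOW in 3 of the 4 fits (-0.44, -0.64 and -0.70). Calls in this comparison numbered 0 to 3 without 1 array. The 270 genes that were higher with live B. lactis 420 had a median supernatant difference of -0.03 and a range of -0.51 to 0.64, and 101 of them lay above 0. Over all genes tested the median was -0.02, with 5199 of 11865 above 0. MIR146A read 1.78 and 2.01 with B. lactis 420 supernatant and 2.26 and 2.13 with NCFM supernatant, all under the floor. ICAM1 differed by -0.33 and OLR1 by -0.25, neither called.

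**Figure D5:**
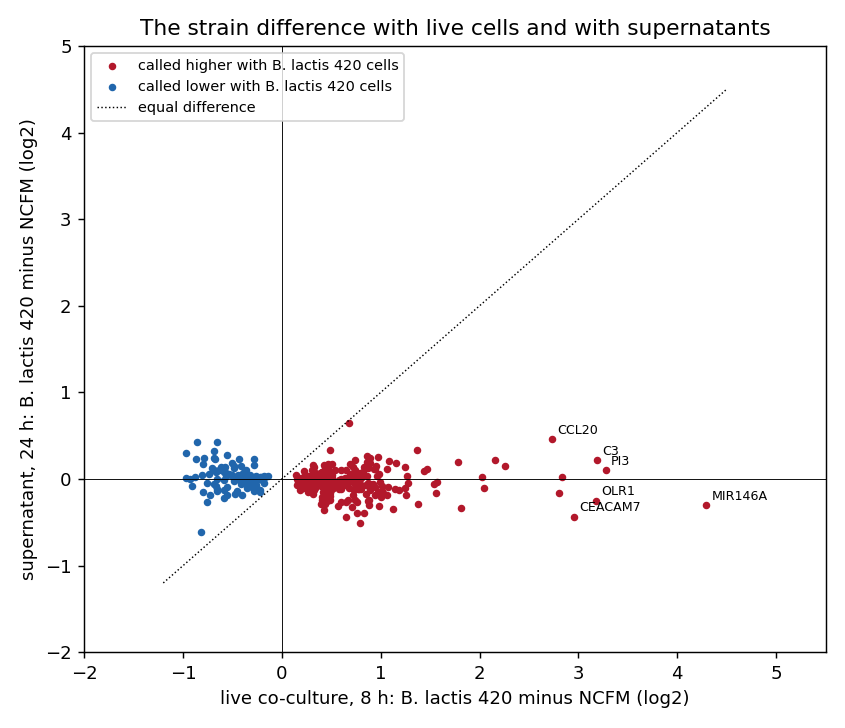
Strain difference with live cells at 8 h (horizontal axis) and with supernatants at 24 h (vertical axis), both B. lactis 420 minus NCFM in log2, for the 270 genes called higher (red) and the 90 called lower (blue) with live B. lactis 420. The dotted line marks equal differences. Supernatant differences of the red points stay between -0.51 and 0.64, while live differences reach 4.29.

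The difference between both formats was tested as an interaction, and 172 genes (1.45% of those tested) were called, 146 (1.23%) with a more positive difference in live co-culture and 26 (0.219%) with a more negative one. Without 1 array the count ran from 73 to 294. Live cells were tested at 8 h and supernatants at 24 h, so format and time cannot be told apart. The interaction was 4.59 for MIR146A (adjusted p = 3.02e-10), of uncertain size because its supernatant values were under the floor, 3.43 for OLR1 (2.03e-08) and 2.27 for CCL20 (adjusted p = 6.76e-11). These genes are among the largest live differences, which are part of the interaction, so its size in them follows in part from that choice. For NFKBIZ the interaction was 0.15 and not called (adjusted p = 0.549).

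Against the third live strain, Ls-33, limma called 662 genes (5.58% of those tested), 320 higher (2.7%) and 342 lower (2.88%) with B. lactis 420. This comparison uses the same B. lactis 420 arrays as the one with NCFM. OLR1 read 7.81 on both B. lactis 420 arrays, against 9.15 and 9.28 with Ls-33 (-1.40, adjusted p = 3.94e-05). LRG1 differed by -2.10, CASP5 by -2.10, CXCL10 by -2.52, CEACAM7 by -1.62, ICAM1 by -1.37, CFB by -1.16 and PI3 by -1.10. CXCL10 passed the filter only through the Ls-33 arrays, where it was high, and was not tested without either of them. C3 was called at -0.81, a call lost without any 1 of the 4 arrays (-0.93 to -0.70). Of 13 tested adhesion and scavenger genes 0 were higher and 8 lower with B. lactis 420, and of 14 antimicrobial and antiprotease genes 0 and 4. The counts were 0 and 3 of 11 caspase and inflammasome genes, 1 and 3 of 12 complement genes and 0 and 2 of 6 chemokines, CXCL10 among them. Of the 20 tested genes of the NF-kB list 3 were higher with B. lactis 420 than with Ls-33 and 1 lower. MIR146A read 8.24 and 8.32 with B. lactis 420, against 6.08 on both Ls-33 arrays, higher by 2.20 (adjusted p = 1.08e-07). TNFAIP3 was higher by 0.71 (adjusted p = 0.0028), a call lost without the second B. lactis 420 array (0.56), and NFKBIA by 0.73 (adjusted p = 3.94e-05). TNFAIP8, a TNF-induced regulator of apoptosis, was lower by 0.39 (adjusted p = 0.00188), while NFKBIZ at 0.25 and TNIP1 at -0.06 were not called (adjusted p = 0.0557 and 0.771). Outside that list the immediate early gene IER3 was higher by 0.46 (adjusted p = 0.00112). For CCL20 the difference of 0.17 was not called (adjusted p = 0.196).

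Where at least 2 probe sets of a gene were called, they mostly pointed the same way in the direct comparison. Of 83 other probe sets of the named genes, called or not, 15 pointed the opposite way and 38 the same way without a call. Tested one by one, 926 of 22020 probe sets were called (4.21%), 776 higher (3.52%) and 150 lower (0.681%) with B. lactis 420. At least 2 were called in each of 130 genes, and in 3 of these (2.31%), AGPS, DNAJC22 and KITLG, they pointed opposite ways. Against medium 7015 probe sets were called with B. lactis 420 (31.9%) and 7567 with NCFM (34.4%), and the share of opposite genes was 9.48% and 16.6%.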

How the data were processed

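Total RNA of Caco-2 cells was hybridised to Affymetrix Human Genome U133 Plus 2.0 arrays. The deposited table holds log2 signals that the authors made with RMA, per the submitters' processing notes, which is background correction, quantile normalization and summarising of probes into probe sets; the sources used here give neither its version nor whether all 20 arrays were treated together. Array files were not used.

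Of 54675 probe sets, 41091 carry 1 gene symbol, 1801 several, 11721 none, and 62 are controls. Symbols of the platform annotation were updated through Entrez identifiers to RefSeq of GRCh38.p14, where 54 identifiers found no match and kept their symbol. For each of 19775 genes 1 probe set was kept, that of highest mean signal over the 20 arrays, leaving out probe sets marked _x_at where others exist. Genes with a mean over the 14 arrays of the probiotic set under 2.74, the 40th percentile, were left out, and 11865 were tested. limma 3.58.1 in R 4.3.3 fitted 7 groups of 2 arrays (7 residual degrees of freedom), with moderated variances that follow mean signal and Benjamini-Hochberg adjustment over all genes tested. Tables were made with Python 3.11.15 and pandas 2.3.3. The number of arrays limits the precision, and an exact permutation test of 2 against 2 cannot go below p = 0.333.

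Named by rule were, among called genes without overlap between the strains, the 12 that rose most and the 12 that fell most, up to 4 called members of each of 37 gene lists by adjusted p, the 5 largest interactions, and 12 set genes. The comparison, its gene lists and the set genes were chosen with earlier results of these data known. Genes named beyond the rule were chosen after their values were seen. In simulated data for the strain comparison (11865 genes, 200 changed) the fit recovered 43.3% of 1.5-fold, 83.6% of 2-fold and 100% of 4-fold changes, and 6.21% of its calls were false. That simulation drew independent normal noise for each array and held no change under 1.5-fold, where most calls here lie. Its shares therefore cannot be carried over to the calls of the real arrays. Alternatives covered the filter, the variance trend, quantile normalization, the choice of probe set, the arrays in the fit and the replicate number as a block; leaving out single arrays in the comparison with Ls-33 was added after seeing the data. The replicate numbers are shared by all groups, but nothing says that they mark a culture or day.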

Additional observations from a re-analysis of the deposited data

Results flagged for a closer look

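Each value below is the interaction of strain and format on the log2 scale, the B. lactis 420 minus NCFM difference in live co-culture at 8 h minus the same difference with supernatants at 24 h. In all, 172 genes were called in it by limma, and format and time cannot be told apart. The genes listed are the 49 with a call among the 85 named by rule, and genes named beyond it follow at the end. Genes named for their live difference bring that same difference into the interaction, so large interactions in them follow in part from the choice. Among the 12 largest rises the interaction was 4.59 for MIR146A, 3.43 for OLR1, 3.39 for CEACAM7, 3.17 for PI3, 2.97 for C3, 2.96 for CASP5, 2.81 for LRG1, 2.27 for CCL20, 2.15 for TNFRSF9, 2.11 for KYNU, 2.01 for TNFAIP3 and 1.93 for CXCL8. Of the largest falls it was -1.28 for MAP2K6, -1.27 for ARRDC4, -1.04 for CALCOCO1, -0.96 for CROT and -0.93 for RASSF8-AS1.

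In genes of inflammation and defence it was 2.15 for ICAM1, 1.60 for CASP10, 1.34 for CXCL10 and PIGR, 1.32 for CEACAM5, 1.26 for IL32, 1.17 for TNIP1, 1.13 for CASP4, 1.03 for NFKBIA, 1.00 for OAS1, 0.82 for CFB, 0.71 for STAT3, 0.62 for CASP8 and 0.52 for NAMPT. In early and stress genes it was 0.89 for IER3, 0.63 for ID1, 0.39 for KLF6, 0.49 for DNAJB9, 0.68 for TRIB3 and 0.31 for HSPB1. In the remaining genes it was 1.72 for EGLN3, 1.25 for BIK, 1.15 for CGNL1, 0.92 for TFF1 and PLAUR, 0.40 for CLDN1, 0.39 for SLC2A1, 0.30 for KRT8, 0.29 for AQP3, 0.22 for KRT18, -0.44 for SPRY2 and -0.75 for SULT2A1.

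Leaving out each of the 8 arrays in turn, 28 of the 49 genes kept their call in all 8 fits. The call was lost in 1 fit for CASP10 (without the second NCFM supernatant array, 1.36 to 1.84 over the fits), in 2 for SLC2A1 (without the second supernatant array of either strain), in 4 for KYNU (1.66 to 2.56), TRIB3 and KRT8, in 5 to 7 for HSPB1, CASP4, CASP8, NAMPT, KLF6, CGNL1, SPRY2, KRT18, MAP2K6, CROT, CALCOCO1, STAT3, DNAJB9, AQP3 and CLDN1, and in all 8 for RASSF8-AS1 (-0.97 to -0.90). Each of the 49 kept its direction in these fits.

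Of genes named beyond the rule, the interaction was also called for IKBKE (1.59), CEACAM1 (0.70), CEACAM6 (0.56), IFNGR2 (0.84), PCK1 (-0.65) and TXNIP (-0.49), each in all 8 fits without 1 array. It was called for NFKB2 (0.95), EHHADH (-0.93) and CRIM1 (0.35) as well, and their calls were lost in 6, 5 and 7 of these fits.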

How the results depend on the processing

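Calls between the co-cultures, 360 in the deposited scaling, numbered 184 (144 higher, 40 lower) without a variance trend, 107 (94 and 13) in a fit of only the 4 arrays, 230 (46 of them lower) over the 8 arrays of 8 h, and 926 (776 and 150) over every probe set, where more features are tested. Quantile normalization gave 170 lower. Without 1 array they ran from 159 to 505, with 134 to 359 higher and 25 to 146 lower. Supernatant calls, 3 at first, were 0 without a trend or with the mean of a gene's probe sets, 1 in a fit of 4 arrays, and 0 to 3 without 1 array. Interaction calls were 68 without a trend, 94 over 8 arrays, 335 over every probe set and 73 to 294 without 1 array. Calls against medium over every probe set were 7015 with B. lactis 420 and 7567 with NCFM, and without 1 array 3160 to 3184 and 3060 to 3648. Called chemokines were 1 with the filter at the 60th percentile and 5 with the mean of probe sets or every probe set. Called caspases were 2 with that filter, without a trend or in the fit of 4 arrays. Without 1 of the 4 arrays compared, called members numbered 7 to 9 (NF-kB), 6 (adhesion), 4 (antimicrobial), 3 (chemokines), 2 to 4 (caspases) and 2 (complement). All counts given here without 1 array left out an array of the comparison itself. Without either Ls-33 array CXCL10 was not tested.

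The replicate numbers are only shared labels: deviations of same-numbered arrays correlated at 0.0459 between the co-cultures and -0.0519 between the supernatants. With the replicate block 329 genes were called, 250 higher and 79 lower, of which 246 and 73 were among those called without it, and 1 supernatant gene.

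Direction turned at other probe sets of TNIP1 (-0.21), CFB (-0.023), CD59 (-0.34), PIGR (-0.38), MAP3K8 (-0.046), SOCS6 (-0.032), XBP1 (-0.39), HSPD1 (-0.32), PLIN2 (-0.086), SLC15A1 (-0.40), SPRY1 (0.24), NQO1 (-0.020) and OCLN (0.25, 0.059 and 0.24). With the mean of probe sets it turned for HSPD1 (-0.011), SLC15A1 (-0.034) and OCLN (0.12), and without the first NCFM array for PTGS2 (-0.0030). Over the named genes, fits without 1 array kept direction and call in 226 cases, lost the call in 113 and turned 1; the other settings kept 589, lost 156 and turned 3. Of their 83 other probe sets, 30 had the same direction and side of the threshold, 38 the same direction without a call and 15 the opposite direction. The cause was not tested. Values under the floor of 2.74 limit the sizes given for CXCL8, CXCL10, PIGR, KYNU and ADAMTS6 between the co-cultures, for MIR146A against medium, and for MIR146A, CXCL8 and CXCL10 in the supernatants and the interaction.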

Other observations

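Outside the lists, 3 metabolic genes that were lower with live B. lactis 420 and a receptor that was higher are given as values. They were chosen after their values were seen and stand for no group. PCK1, the rate-limiting enzyme of gluconeogenesis, read 7.38 and 7.43 with B. lactis 420, against 8.03 and 8.09 with NCFM, lower by 0.65 on the log2 scale in both arrays of the strain (limma adjusted p = 4.73e-06). TXNIP, a thioredoxin-binding relative of ARRDC4 that also responds to glucose, read 10.74 and 10.75, against 11.25 and 11.21 with NCFM (-0.48, adjusted p = 2.40e-06). EHHADH, of peroxisomal fatty acid oxidation, read 6.97 and 6.90, against 7.49 and 7.75 with NCFM (-0.68, adjusted p = 0.00747), and its call was lost without the second array of either strain (-0.65 and -0.56). IFNGR2, a chain of the interferon-gamma receptor, pointed the other way, at 8.15 and 8.26 with B. lactis 420, against 7.38 and 7.45 with NCFM (0.79, adjusted p = 6.03e-05). With medium alone PCK1 read 10.15 and 10.11, TXNIP 11.47 and 11.55 and IFNGR2 8.58 and 8.47, above both strains in each, while EHHADH read 7.38 and 7.30, between the strains.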
